A study of Mus musculus with 18 samples.

Results

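The mannose receptor and 9 other C-type lectin genes of myeloid cells were followed in microglia and macrophages of the injured mouse spinal cord. They were the 10 rows of the deposited gene table whose symbol was Mrc1, Clec7a, Clec10a, Mgl2, Clec4n, Clec4d, Clec4e, Clec4a1, Clec4a2 or Clec5a, out of 53465 rows. Adult female C57BL/6J mice, 8 to 10 weeks old, had a contusion at a thoracic vertebra and received an injection into the cord 48 h later. The vehicle, PBS, was given to 3 mice, a dose of 100 ng of recombinant interleukin-13 (rIL-13) to 3 others, and the same dose of rIL-4 to the last 3. At 24 h after the injection, microglia (CD45low CD11b+ F4/80+) and macrophages (CD45high CD11b+ F4/80+) of each cord were sorted, which gave 18 libraries in 6 groups of 3 mice. Every animal was injured and injected, so no group shows the uninjured cord, and each mouse gave a library of both cell types. Mice are numbered as in the labels, 1 to 3 for PBS, 5 to 7 for rIL-13 and 8 to 10 for rIL-4.

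C-type lectins are surface receptors that bind sugars through a calcium-dependent domain, or use a related fold for other ligands. Mrc1 (CD206) takes up mannosylated glycoproteins, and Clec10a and Mgl2 encode the galactose-type lectins MGL1 and MGL2. These 3 genes are commonly used as markers of macrophages exposed to IL-4 or IL-13. Clec7a (Dectin-1) binds β-glucan and signals through the kinase Syk, and it is also known as a marker of activated microglia. Clec4n (Dectin-2), Clec4d (MCL), Clec4e (Mincle) and Clec5a (MDL-1) pair with adaptors that carry activating motifs, whereas Clec4a2 (DCIR) carries an inhibitory motif. IL-4 and IL-13 signal through STAT6, which binds a palindrome made of TTC and GAA with 4 free bases between them.

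The 10 genes lie on 3 chromosomes of GRCm38, and 7 of them are on chromosome 6. The 5 Clec4 genes form a cluster there that spans 368 kb from the start of Clec4a1 to the end of Clec4e. Clec10a and Mgl2 are neighbours on chromosome 11, with 18.6 kb between them. Sequence upstream of the annotated start is shown for 3 genes that rose with the cytokines (Mrc1, Mgl2, Clec7a) and 2 that fell (Clec4d, Clec5a), since this is where a STAT6 element near the start would be. The sequence is from RefSeq (GRCm38.p6), 5′ to 3′ on the strand of the gene, with any match to TTC and GAA spaced by 4 or 3 free bases in capitals.
Mrc1 (chr2:14229164-14229391, + strand): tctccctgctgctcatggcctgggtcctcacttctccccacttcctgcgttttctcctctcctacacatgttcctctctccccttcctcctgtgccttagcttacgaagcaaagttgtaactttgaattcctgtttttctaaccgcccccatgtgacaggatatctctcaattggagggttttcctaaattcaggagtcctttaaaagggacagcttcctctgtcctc
Mgl2 (chr11:70130107-70130328, + strand): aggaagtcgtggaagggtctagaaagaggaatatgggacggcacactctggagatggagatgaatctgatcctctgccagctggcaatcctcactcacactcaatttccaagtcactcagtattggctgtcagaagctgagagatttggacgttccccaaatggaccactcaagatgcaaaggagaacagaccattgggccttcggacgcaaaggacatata
Clec7a (chr6:129472780-129473029, - strand): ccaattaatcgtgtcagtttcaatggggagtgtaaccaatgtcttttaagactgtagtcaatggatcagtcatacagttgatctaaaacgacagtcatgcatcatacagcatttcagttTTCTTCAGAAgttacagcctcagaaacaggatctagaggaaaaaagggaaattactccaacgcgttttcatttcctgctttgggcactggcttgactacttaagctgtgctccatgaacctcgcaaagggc
Clec4d (chr6:123261857-123262110, + strand): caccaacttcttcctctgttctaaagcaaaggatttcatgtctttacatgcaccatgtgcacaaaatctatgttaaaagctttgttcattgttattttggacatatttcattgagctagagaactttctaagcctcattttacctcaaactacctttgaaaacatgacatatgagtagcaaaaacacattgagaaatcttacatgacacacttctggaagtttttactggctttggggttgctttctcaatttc
Clec5a (chr6:40585822-40586055, - strand): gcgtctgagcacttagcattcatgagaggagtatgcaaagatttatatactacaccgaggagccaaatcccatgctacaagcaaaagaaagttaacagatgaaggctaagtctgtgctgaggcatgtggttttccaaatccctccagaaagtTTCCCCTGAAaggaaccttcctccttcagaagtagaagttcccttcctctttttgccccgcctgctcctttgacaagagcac

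RefSeq promoters of 300 bases around the start were found for 8 of the 10 genes, with none for Clec10a or Clec4n. The palindrome with 4 free bases was in 3 of these 8, namely Clec7a, Clec4a1 and Clec5a, against 6.99% of 27025 promoters of that length. In Clec7a the match was TTCTTCAGAA and in Clec5a it was TTCCCCTGAA, so that a gene that rose and a gene that fell both had 1. The upstream sequences of Mrc1 and Mgl2, which had the largest rises, held no match. The form with 3 free bases was in Clec4a2 alone, against 8.47% of all promoters. A PU.1-type GAGGAA was in 7 of the 8 genes against 28.3%, and a loose C/EBP-type TTNCNNAA was in 6 of the 8 against 40.7%. The ISRE-PU.1 composite, GGAA followed directly by GTGAAA, was in none of the 8, against 0.244%. Both strands were searched, and no match of 1 motif overlapped that of another. These are matches of letters, and a lack of them says only that the letters are not in this window.

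Libraries held between 35961305 and 45849829 counts each. Every cytokine microglia library had fewer genes with any count than every PBS microglia library. PBS microglia had 17620, 17876 and 18371 such genes. After rIL-13 the microglia numbers were 16832, 16132 and 16693, while after rIL-4 they were 15193, 15626 and 15325. Macrophage libraries ranged from 17553 to 18174 (PBS), 16867 to 17591 (rIL-13) and 17452 to 17529 (rIL-4). The part of this in the lectin levels was not tested. Microglia libraries had more of 10 microglial marker transcripts than macrophage libraries of the same treatment. With PBS their sum was between 6553 and 11900 CPM, which are counts scaled to the size of the library, in microglia and between 2943 and 4340 CPM in macrophages, and all 10 were higher in microglia. Both gates held transcripts of other cells. Fibroblast and pericyte markers summed to between 190.8 and 7109 CPM in microglia libraries and to at most 7.06 CPM in macrophage libraries. In microglia they summed to between 2063 and 3157 CPM with PBS and between 190.8 and 1334 CPM with rIL-4, where none passed the test. The highest sum was in rIL-13 microglia of mouse 6, and the other 2 rIL-13 microglia libraries had 1590 and 1043 CPM. Of 8 markers of monocyte-derived macrophages, 7 were lower in PBS microglia than in PBS macrophages. Ccr2 had means of 16.6 and 207.7 CPM there. The 8 summed to between 858.2 and 1362 CPM in PBS microglia and between 1277 and 1655 CPM in rIL-4 microglia, where 1 rose and none fell. Their part in the lectin levels of microglia was not tested. Neutrophil markers, 10 in all, summed to between 1024 and 1665 CPM in PBS macrophage libraries, between 262.9 and 919.4 CPM with rIL-4, and to 555.6, 603.9 and 3211 CPM with rIL-13. The rIL-13 macrophage library of mouse 6 therefore stood apart from all others. For comparisons with PBS, values without it are given where a call changes or a difference moves by over 1.5 times. In bulk libraries, fewer cells that express a gene and less of its RNA in each cell cannot be told apart.

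**Figure D1:**
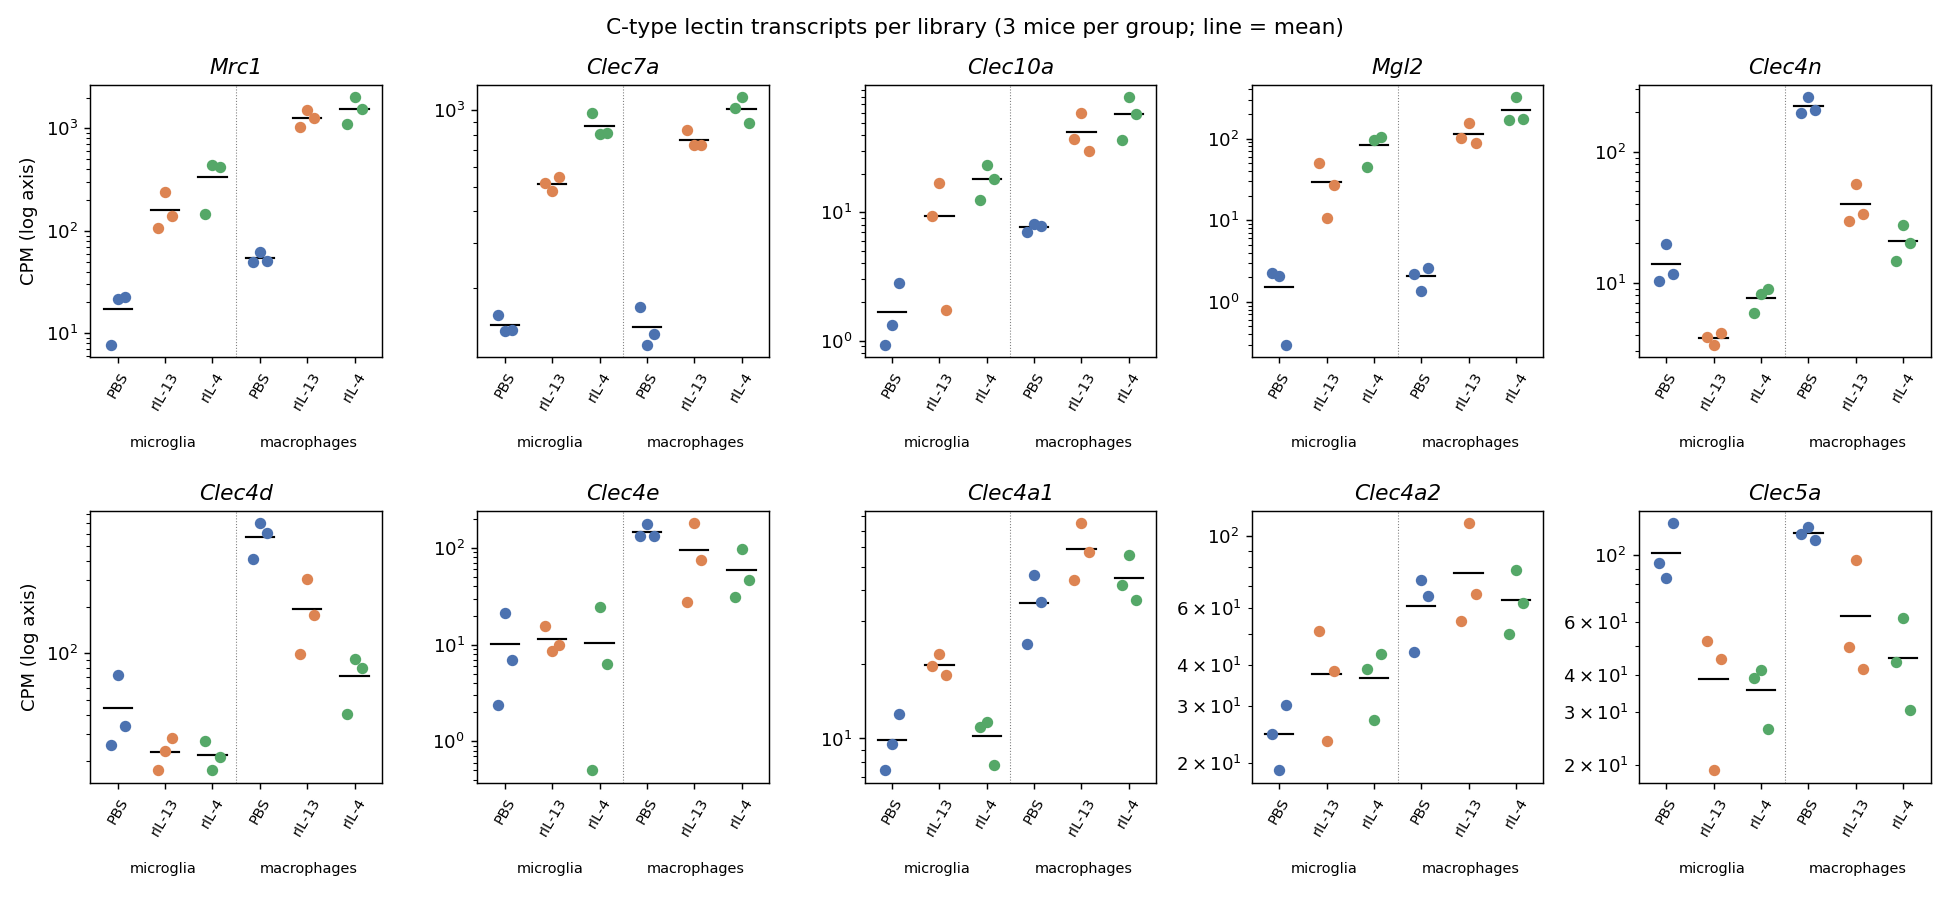
Level of each gene in every library, as CPM on a log axis that differs between panels, for the 6 groups of 3 mice (points) with the mean (line). Mrc1, Clec7a and Mgl2 were higher in every cytokine library than in every PBS library of the same cell type, and Clec4n and Clec5a were lower.

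In macrophages, rIL-4 changed 7 of the 10 genes against PBS, with 4 higher and 3 lower. The test was edgeR's quasi-likelihood test with Benjamini-Hochberg adjustment over all genes and a threshold of 0.05, which called 14.0% of all genes tested, 6.77% as higher and 7.20% as lower. The 4 that rose were Mgl2, Mrc1, Clec10a and Clec7a, and the 3 that fell were Clec4n, Clec4d and Clec5a. The 3 libraries of each group did not overlap for 8 of the 10, against 34.7% of all genes. rIL-13 changed 5 of the 10, against 4.19% of all genes (2.53% higher and 1.66% lower). The same 4 rose, and only Clec4n fell. Without mouse 6, 7 were called with rIL-13, against 3.76% of all genes in that fit. Groups did not overlap for 7 of the 10 with rIL-13, against 24.5% of all genes. In microglia, rIL-4 changed 3 of the 10, against 2.22% of all genes (1.33% higher and 0.887% lower). These were Mgl2, Mrc1 and Clec7a, all higher. Groups did not overlap for 6, against 25.9% of all genes. rIL-13 changed only Clec7a in microglia, against 0.366% of all genes (0.283% higher and 0.0835% lower), while groups did not overlap for 6, against 16.0% of all genes. DESeq2, run as an alternative, called 7 with rIL-4 and 6 with rIL-13 in macrophages, against 19.6% and 8.56% of all genes, and 5 and 6 in microglia, against 8.09% and 2.19%. The comparisons of the 2 cytokines within a cell type share their PBS libraries. Of 10 microglial markers in the same macrophage libraries, all fell with rIL-4 and 3 with rIL-13. Their sum in macrophage libraries was between 2943 and 4340 CPM with PBS, between 1206 and 2438 CPM with rIL-13 and between 498.2 and 876.6 CPM with rIL-4, and their part in the changes of the 10 lectin genes was not tested.

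**Figure D2:**
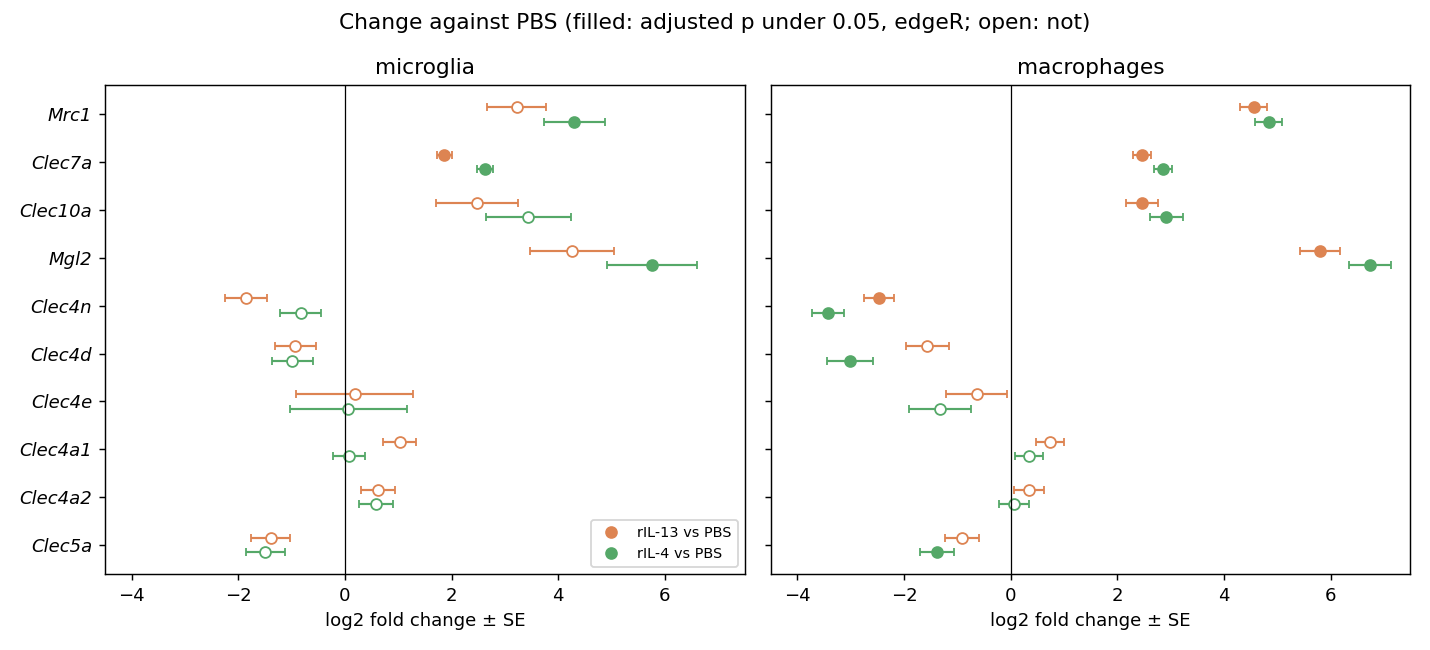
Log2 fold change of each gene with rIL-13 or rIL-4 against PBS, ± SE, in microglia (left) and macrophages (right). Filled points passed an adjusted p of 0.05 and open points did not. Clec7a was filled in all 4 comparisons, and Clec4e, Clec4a1 and Clec4a2 in none.

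Mrc1, the mannose receptor, rose with both cytokines in macrophages and with rIL-4 in microglia. In PBS macrophages its level was 49.5, 61.8 and 51.2 CPM in mice 1, 2 and 3. It was 1035, 1500 and 1277 CPM with rIL-13 (mice 5, 6 and 7) and 1114, 2014 and 1542 CPM with rIL-4 (mice 8, 9 and 10). Every cytokine library was above every PBS library, and the ranges of the 2 cytokines overlapped. The log2 fold change against PBS was 4.84 ± 0.25 (SE) with rIL-4, a 28.7-fold rise (edgeR adjusted p = 5.26e-06), and 4.56 ± 0.25 with rIL-13, a 23.6-fold rise (edgeR adjusted p = 8.41e-06). In microglia the levels were lower throughout. They were 7.73, 21.4 and 22.8 CPM with PBS, 107.6, 238 and 138.9 CPM with rIL-13, and 145.7, 443.7 and 421.3 CPM with rIL-4. All cytokine libraries were again above all PBS libraries. Mrc1 rose 19.7-fold with rIL-4 (log2 4.30 ± 0.58, edgeR adjusted p = 0.00735). The log2 difference of 3.22 ± 0.55 with rIL-13 was a 9.33-fold difference that narrowly missed the threshold (edgeR adjusted p = 0.0524).

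Mrc1 is also carried by border-associated macrophages and by some endothelial cells. Of 8 border-associated macrophage markers, 2 rose and 4 fell in macrophages with rIL-4. Their sum was between 2789 and 3069 CPM with PBS, between 2013 and 3413 CPM with rIL-13 and between 1001 and 1758 CPM with rIL-4. In microglia 2 of the 8 rose with rIL-4 and 1 with rIL-13, and none fell. Their sum there was between 666.5 and 1004 CPM with PBS and between 662 and 1014 CPM with rIL-4. From PBS to rIL-4 in microglia the mean of Cd163 went from 4.37 to 119.2 CPM and that of Cbr2 from 82.9 to 235.3 CPM, while that of F13a1 went from 206.8 to 85.9 CPM and that of Stab1 from 380.6 to 211.3 CPM. In macrophages Cbr2 went from 69.2 to 254.4 CPM, F13a1 from 1333 to 258.1 CPM and Stab1 from 734.2 to 207.3 CPM. Cd163, the haemoglobin scavenger receptor, is on that list and had the pattern most like Mrc1 of all 16534 genes compared. Its level was between 4.20 and 8.36 CPM in PBS macrophages and between 165.5 and 700.1 CPM with rIL-4. Endothelial markers, 4 in all, summed to between 17.0 and 19.1 CPM in PBS macrophage libraries, between 125.2 and 215.3 CPM with rIL-13 and between 196 and 426.1 CPM with rIL-4, where 2 rose and 1 fell. From PBS to rIL-4 the mean of Pecam1 went from 8.49 to 221.9 CPM, that of Flt1 from 6.38 to 64.7 CPM, that of Cldn5 from 2.42 to 0.874 CPM and that of Cdh5 from 0.502 to 0.552 CPM. In microglia libraries the 4 markers summed to between 584.1 and 1351 CPM with PBS and between 1575 and 2141 CPM with rIL-4, and none passed the test. The part of these cells in the level of Mrc1 was not tested.

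Mgl2 changed the most of the 10 genes in each comparison with PBS. It was nearly absent with PBS, at 2.21, 1.37 and 2.59 CPM in macrophages and 2.28, 2.05 and 0.299 CPM in microglia. In macrophages it was 102.4, 153.7 and 88.0 CPM with rIL-13 and 167.4, 319.6 and 175.2 CPM with rIL-4. These 3 groups did not overlap. Mgl2 rose 106.7-fold with rIL-4 (log2 6.74 ± 0.39, edgeR adjusted p = 9.69e-06) and 55.7-fold with rIL-13 (log2 5.80 ± 0.38, edgeR adjusted p = 3.68e-05). In microglia its level was 50.5, 10.5 and 26.9 CPM with rIL-13 and 45.4, 96.6 and 105.4 CPM with rIL-4. The lowest cytokine library was above the highest PBS library, while the cytokine groups overlapped. Mgl2 rose 54.5-fold in microglia with rIL-4 (log2 5.77 ± 0.84, edgeR adjusted p = 0.0114). This call was lost without PBS microglia of mouse 1 (edgeR adjusted p = 0.0596) or mouse 2 (edgeR adjusted p = 0.0507). With rIL-13 the log2 difference was 4.26 ± 0.79 (edgeR adjusted p = 0.0833). It passed without rIL-13 microglia of mouse 6, at 4.66 (edgeR adjusted p = 0.0409), and without any 1 library the edgeR adjusted p was between 0.0409 and 0.284. The PBS microglia library of mouse 3 held 13 counts of Mgl2.

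Clec10a, the neighbour of Mgl2, had a lower mean level per kilobase of exon than Mgl2 in rIL-4 macrophages, at 20.1 against 105.4 CPM per kb. Macrophages held 6.98, 8.15 and 7.87 CPM with PBS, 37.2, 59.5 and 29.8 CPM with rIL-13 and 36.9, 78.9 and 59.0 CPM with rIL-4. All cytokine libraries were above the PBS libraries. Clec10a rose 7.58-fold with rIL-4 (log2 2.92 ± 0.31, edgeR adjusted p = 0.000320) and 5.51-fold with rIL-13 (log2 2.46 ± 0.31, edgeR adjusted p = 0.00213). In microglia it was 0.930, 1.32 and 2.81 CPM with PBS and 12.5, 23.5 and 18.2 CPM with rIL-4, without overlap. With rIL-13 the values were 9.36, 17.1 and 1.75 CPM, and mouse 7 fell within the PBS range. Neither difference passed in microglia, with a log2 of 3.44 ± 0.79 for rIL-4 (edgeR adjusted p = 0.0640) and 2.47 ± 0.76 for rIL-13 (edgeR adjusted p = 0.398). DESeq2 called Clec10a with rIL-4 (DESeq2 adjusted p = 0.000170) and with rIL-13 (DESeq2 adjusted p = 0.0415). For rIL-4, edgeR also called it with other filters, only the 6 libraries compared (edgeR adjusted p = 0.0332) or all 18 libraries (edgeR adjusted p = 0.00378). Leaving out 1 library gave no call. The transcripts of Clec10a and Mgl2 share 144 stretches of 76 bases, the read length, which is 4.32% of those in Clec10a and 6.38% of those in Mgl2. Reads from these stretches could have been divided between the pair when genes were counted. When the counts of Clec10a and Mgl2 were summed, the sum rose in microglia with rIL-4 (log2 4.98, edgeR adjusted p = 0.000808) and with rIL-13 (log2 3.59, edgeR adjusted p = 0.00662).

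Clec7a, the β-glucan receptor, rose in all 4 comparisons and had the smallest SE of the 10 genes in each. In microglia it was 156.5, 134.8 and 136.5 CPM with PBS, 516.6, 480.7 and 547.7 CPM with rIL-13, and 980.1, 803.6 and 813.7 CPM with rIL-4. The 3 groups stood apart from each other. In macrophages it was 168.3, 119.3 and 131.3 CPM with PBS, 837.8, 732.4 and 732.8 CPM with rIL-13, and 1021, 1126 and 893.3 CPM with rIL-4. Here too the 3 groups did not overlap. The rise in microglia was 6.17-fold with rIL-4 (log2 2.63 ± 0.14, edgeR adjusted p = 5.74e-05) and 3.63-fold with rIL-13 (log2 1.86 ± 0.14, edgeR adjusted p = 0.00103). In macrophages it was 7.26-fold with rIL-4 (log2 2.86 ± 0.18, edgeR adjusted p = 1.24e-05) and 5.52-fold with rIL-13 (log2 2.46 ± 0.17, edgeR adjusted p = 5.19e-05). In the same microglia libraries 4 of 10 microglial markers fell with rIL-4, and none passed with rIL-13. Their sum was between 6553 and 11900 CPM with PBS, between 2904 and 7628 CPM with rIL-13 and between 2713 and 4619 CPM with rIL-4.

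Clec4n, which encodes Dectin-2, had the largest fall of the 10 in macrophages. In PBS macrophages it was 197, 259.3 and 209 CPM. It was 29.3, 56.8 and 33.7 CPM with rIL-13 and 14.7, 27.3 and 20.0 CPM with rIL-4. The 3 groups did not overlap. Clec4n fell 10.7-fold with rIL-4 (log2 -3.42 ± 0.29, edgeR adjusted p = 9.82e-05) and 5.53-fold with rIL-13 (log2 -2.47 ± 0.28, edgeR adjusted p = 0.00142). Without mouse 6 the log2 difference with rIL-13 was -2.80. In microglia the level was 10.2, 19.8 and 11.6 CPM with PBS, 3.89, 3.37 and 4.16 CPM with rIL-13 and 5.84, 8.23 and 8.97 CPM with rIL-4. All cytokine libraries were below all PBS libraries, and rIL-13 was below rIL-4, opposite to the order in macrophages. Neither difference from PBS passed in microglia, with a log2 of -1.86 ± 0.40 for rIL-13 (edgeR adjusted p = 0.141) and -0.83 ± 0.39 for rIL-4 (edgeR adjusted p = 0.331).

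Clec4d, the partner of Mincle, was the most abundant of the 10 per kilobase of exon in PBS macrophages, and its level was 409.3, 702.7 and 608.6 CPM. With rIL-4 it was 40.6, 92.6 and 80.5 CPM, below every other macrophage library. It fell 8.07-fold (log2 -3.01 ± 0.42, edgeR adjusted p = 0.00147). With rIL-13 it was 99.8, 304.1 and 177.2 CPM, and the log2 difference of -1.56 ± 0.40 did not pass (edgeR adjusted p = 0.0600). Without mouse 6 it was -2.03 and passed (edgeR adjusted p = 0.0172). In microglia Clec4d was 25.4, 72.8 and 33.9 CPM with PBS, 17.6, 23.2 and 28.2 CPM with rIL-13 and 26.9, 17.4 and 21.4 CPM with rIL-4. These groups overlapped, and neither log2 difference passed, at -0.93 ± 0.38 for rIL-13 (edgeR adjusted p = 0.605) and -0.99 ± 0.38 for rIL-4 (edgeR adjusted p = 0.240).

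Clec4e, which encodes Mincle, passed in no comparison with PBS in the main fit. In macrophages it was 131.9, 175.7 and 133.6 CPM with PBS, 27.8, 181 and 74.9 CPM with rIL-13 and 31.0, 98.7 and 46.5 CPM with rIL-4. The rIL-13 library of mouse 6 was the highest of all 9, and the rIL-4 libraries were all below PBS. The log2 difference was -1.33 ± 0.58 with rIL-4 (edgeR adjusted p = 0.164) and -0.63 ± 0.57 with rIL-13 (edgeR adjusted p = 0.634). With rIL-4 it passed when all genes with any count were kept (log2 -1.32, edgeR adjusted p = 0.0489). It also passed with only the 6 libraries compared (log2 -1.34, edgeR adjusted p = 0.0428). Without mouse 6 the difference with rIL-13 was -1.50 (edgeR adjusted p = 0.157). In microglia single libraries ranged from 0.500 CPM in mouse 8, which is 20 counts, to 24.3 CPM in mouse 9, both with rIL-4. The SE of each microglial difference was 1.09 on the log2 scale, so that only large changes were detectable.

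Clec5a, which signals through DAP12, fell in macrophages with rIL-4. Macrophages held 118.1, 124 and 112.9 CPM with PBS, 49.3, 96.5 and 41.9 CPM with rIL-13 and 44.2, 61.7 and 30.5 CPM with rIL-4. All cytokine libraries were below PBS. Clec5a fell 2.60-fold with rIL-4 (log2 -1.38 ± 0.32, edgeR adjusted p = 0.0174). The call was lost without PBS mouse 2 (edgeR adjusted p = 0.0512), rIL-4 mouse 8 (edgeR adjusted p = 0.0512) or rIL-4 mouse 10 (edgeR adjusted p = 0.0643). With rIL-13 the log2 difference of -0.92 ± 0.31 did not pass (edgeR adjusted p = 0.152), while without mouse 6 it was -1.36 and passed (edgeR adjusted p = 0.0170). In microglia the level was 94.3, 83.8 and 128.2 CPM with PBS, 51.8, 19.2 and 45.2 CPM with rIL-13 and 39.1, 41.5 and 26.3 CPM with rIL-4. No cytokine library reached the PBS range, although neither difference passed, with a log2 of -1.50 ± 0.36 for rIL-4 (edgeR adjusted p = 0.0773) and -1.39 ± 0.36 for rIL-13 (edgeR adjusted p = 0.281). DESeq2 called Clec5a with rIL-4 (DESeq2 adjusted p = 0.00131) and with rIL-13 (DESeq2 adjusted p = 0.00948). For rIL-4, edgeR called it with only the 6 libraries compared (edgeR adjusted p = 0.0356) and with all 18 libraries (edgeR adjusted p = 0.0234). Leaving out 1 library gave no call.

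Neutrophils also carry several of these receptors. The study defined granulocytes as F4/80-, outside both sorting gates. Of 10 neutrophil markers, 3 fell and none rose in macrophage libraries with rIL-4, and none passed with rIL-13. Ly6g, which defines neutrophils, was between 2.04 and 3.56 CPM with PBS, between 0.640 and 5.98 CPM with rIL-13 and between 0.428 and 2.05 CPM with rIL-4. Mouse 6, with the highest sum of these markers, had the highest level of 9 of the 10 lectin genes among the rIL-13 macrophage libraries, all but Clec7a. Dendritic cell markers, 8 in all, summed to between 648.8 and 846.6 CPM with PBS, between 287.6 and 304 CPM with rIL-13 and between 218.2 and 281.7 CPM with rIL-4, and 1 rose and 1 fell with each cytokine. Most of that sum was Cd24a, with means of 709.2 CPM with PBS and 227 CPM with rIL-4. Batf3 had means of 1.09 and 8.34 CPM and Ccr7 of 1.88 and 6.09 CPM. The remaining markers had lower means with rIL-4. Flt3 had 4.84 and 3.22 CPM, Zbtb46 2.63 and 1.46 CPM, and Kit 2.43 and 0.703 CPM. Xcr1 had 0.542 and 0.0811 CPM, and Itgae 0.872 and 0.829 CPM. The part of these cells in the falls of Clec4n, Clec4d and Clec5a was not tested.

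**Figure D3:**
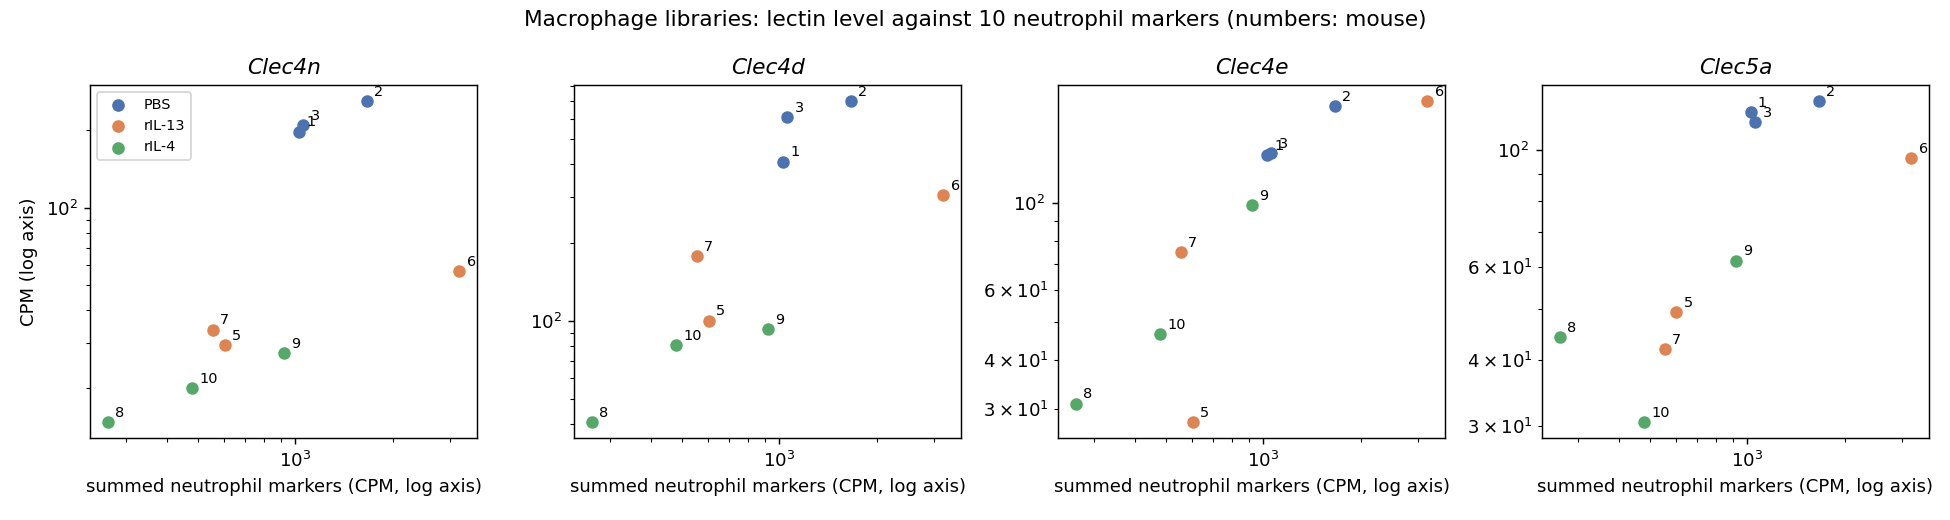
CPM of Clec4n, Clec4d, Clec4e and Clec5a (log axis) against the summed CPM of 10 neutrophil markers (log axis) in the 9 macrophage libraries, numbered by mouse and coloured by treatment. Mouse 6 lies far to the right at 3211 CPM. In that library Clec4e was 181 CPM, above all PBS libraries, while Clec4n, Clec4d and Clec5a, at 56.8, 304.1 and 96.5 CPM, were below them.

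Clec4a2 and its relative Clec4a1 passed in no comparison with PBS. Clec4a2 was between 43.9 and 73.0 CPM in PBS macrophages, between 54.8 and 109.7 CPM with rIL-13 and between 49.8 and 78.7 CPM with rIL-4. In microglia it was between 18.9 and 30.1 CPM with PBS, between 23.4 and 50.8 CPM with rIL-13 and between 27.1 and 43.3 CPM with rIL-4. The groups overlapped in every comparison with PBS, and the log2 differences were between 0.06 ± 0.27 and 0.62 ± 0.32. With rIL-13 in macrophages the difference was 0.35, and without mouse 6 it was 0.0157. Clec4a1 was 7.41, 9.47 and 12.6 CPM in PBS microglia, 19.8, 22.1 and 18.1 CPM with rIL-13 and 11.1, 11.7 and 7.83 CPM with rIL-4. Its rIL-13 libraries were above those of both other groups, with a log2 difference from PBS of 1.03 ± 0.30 that did not pass (edgeR adjusted p = 0.357). In macrophages the differences from PBS of Clec4a1 were 0.74 ± 0.26 with rIL-13 (edgeR adjusted p = 0.170) and 0.34 ± 0.26 with rIL-4 (edgeR adjusted p = 0.451). When counts of Clec4a1, Clec4a2, Clec4a3, Clec4a4, Clec4b1 and Clec4b2 were summed as 1 gene, the sum rose in all 4 comparisons with PBS. Its log2 difference was 1.64 with rIL-4 (edgeR adjusted p = 0.0177) and 1.60 with rIL-13 (edgeR adjusted p = 0.0463) in microglia, and 1.06 (edgeR adjusted p = 0.00649) and 0.9993 (edgeR adjusted p = 0.0229) in macrophages. The sum includes Clec4a3, which also rose when tested alone, so it does not show a change of Clec4a1 or Clec4a2. Transcripts of Clec4a1 share no stretch of 76 bases with another gene. Transcripts of Clec4a2 share 88 of 2990 stretches of 76 bases, or 2.94%, with Clec4a4 and 7 with Clec4b1.

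In a direct test of rIL-4 against rIL-13, none of the 10 genes passed in either cell type. The share called by edgeR among all genes was 0.0385% in microglia and 0.250% in macrophages. At an unadjusted p under 0.05, edgeR had 3 of the 10 in microglia, against 11.4% of all genes, and 4 in macrophages, against 11.1%. DESeq2 called Clec7a in microglia (1 of 10, against 3.78% of all genes) and Clec4n and Clec4d in macrophages (2 of 10, against 3.09%). Groups did not overlap for 3 of 10 in microglia (against 12.3% of all genes) and 4 of 10 in macrophages (against 14.4%). Clec7a was 1.70-fold higher with rIL-4 in microglia (log2 0.77 ± 0.14, edgeR adjusted p = 0.116) and 1.31-fold higher in macrophages (log2 0.39 ± 0.16, edgeR adjusted p = 0.411), without overlap in both. Mgl2 was 1.92-fold higher in macrophages (log2 0.94 ± 0.30, edgeR adjusted p = 0.256). In macrophages Clec4d was 2.74-fold lower with rIL-4 (log2 -1.45 ± 0.40, edgeR adjusted p = 0.188), and Clec4n was 1.94-fold lower (log2 -0.96 ± 0.27, edgeR adjusted p = 0.199). Without any 1 library, the log2 difference was between -1.77 and -0.98 for Clec4d and between -1.21 and -0.63 for Clec4n. In microglia Clec4n was 2.04-fold higher with rIL-4 (log2 1.03 ± 0.39, edgeR adjusted p = 0.392). A p that misses the threshold in 3 mice per group does not show that the cytokines act alike.

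With PBS, 7 of the 10 genes were lower in microglia than in macrophages and none was higher. edgeR called 40.9% of all genes in this comparison, 24.5% as higher and 16.3% as lower in microglia. Groups did not overlap for the same number of members, 7, against 54.0% of all genes. DESeq2 also called 7, against 44.3% of all genes. The largest differences were in the activating members of the cluster. Clec4n was 16.3-fold lower in microglia (log2 -4.03 ± 0.27, edgeR adjusted p = 1.30e-05), Clec4e was 14.8-fold lower (log2 -3.89 ± 0.66, edgeR adjusted p = 0.00174) and Clec4d was 13.3-fold lower (log2 -3.73 ± 0.40, edgeR adjusted p = 0.000147). Clec10a was 4.63-fold lower, Clec4a1 3.66-fold, Mrc1 3.19-fold and Clec4a2 2.53-fold. The 3 that did not pass were Clec7a (log2 -0.01 ± 0.16), Clec5a (-0.24 ± 0.17) and Mgl2 (-0.46 ± 0.73). When the counts of Clec10a and Mgl2 were summed, the sum was lower in microglia by a log2 of -1.62 (edgeR adjusted p = 0.00113). The sign for Clec7a changed with the scaling, and was 0.0011 with size factors of DESeq2. Neutrophil markers were also lower in microglia, in 8 of 10. Border-associated macrophage markers summed to between 666.5 and 1004 CPM in PBS microglia and between 2789 and 3069 CPM in PBS macrophages. Of these 8, 4 were lower in microglia and 1 higher. Dendritic cell markers summed to between 57.2 and 102.8 CPM and between 648.8 and 846.6 CPM. Of these 8, 3 were lower in microglia and 2 higher. The part of such cells in these differences was not tested.

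Per kilobase of exon, the make-up of the 10 transcripts differed between the groups. The length is the union of annotated exons, which can exceed that of the transcript expressed, so shares of different genes compare only roughly. In PBS microglia Clec7a was 39.5% ± 7.7 (SD, n = 3) of their summed CPM per kb, followed by Clec5a with 19.4% ± 4.9 and Clec4d with 19.3% ± 9.0, and the ranges of Clec5a and Clec4d overlapped. In PBS macrophages Clec4d was 51.9% ± 5.2 and Clec4n 23.0% ± 1.8, while Clec7a was 8.1% ± 3.0 and Mrc1 1.3% ± 0.1. With rIL-4, Clec7a was 44.0% ± 6.6, Mrc1 27.3% ± 3.5 and Mgl2 11.6% ± 2.0 in macrophages, and Clec4d was 5.0% ± 1.4. In rIL-4 microglia Clec7a was 69.0% ± 8.4 and Mrc1 11.1% ± 5.4. The summed level was 138.7 ± 15.4 CPM per kb in PBS microglia and 476.1 ± 3.6 in rIL-4 microglia, and in macrophages it was 683.8 ± 122.8 with PBS and 887.2 ± 185.4 with rIL-4, with overlapping ranges.

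**Figure D4:**
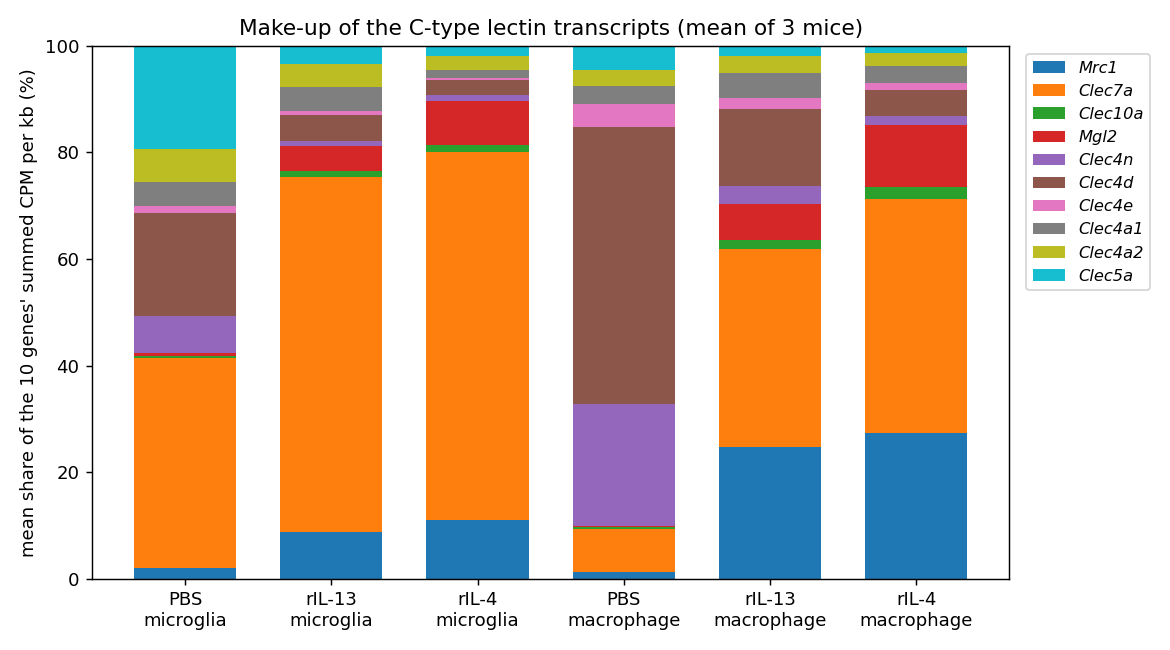
Mean share of each gene (%, 3 mice) in the summed CPM per kb of the 10 genes, for the 6 groups. Clec4d and Clec4n make up most of the bar in PBS macrophages, whereas Clec7a and Mrc1 do after either cytokine.

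The difference between the cell types in the response to a cytokine was tested as an interaction in all 18 libraries. For rIL-4, 1 of the 10 genes passed, against 0.992% of all genes, and DESeq2 called 2, against 4.28%. Clec4n was 10.7-fold lower in macrophages and 1.78-fold lower in microglia, and the response differed by 2.57 ± 0.42 on the log2 scale (edgeR adjusted p = 0.00883). Without PBS mouse 1, PBS mouse 3 or rIL-4 mouse 10 the adjusted p of edgeR was 0.0641, 0.0711 and 0.0589, and the call was lost, while the difference was between 2.42 and 2.79 without any 1 mouse. Clec4d differed by 2.00 ± 0.60 in the same direction (edgeR adjusted p = 0.148). Responses of Mrc1, Clec7a, Clec10a and Mgl2 to rIL-4 differed by -0.56 ± 0.59, -0.26 ± 0.21, 0.49 ± 0.81 and -1.002 ± 0.83, none of which passed. For rIL-13 none of the 10 passed with edgeR, against 0.0242% of all genes, and 2 had an unadjusted p under 0.05, against 5.83% of all genes, while DESeq2 called 0, against 0.957% of all genes. The 2 were Mrc1, with a log2 difference of -1.33 ± 0.59 (edgeR adjusted p = 0.787), and Clec7a, with -0.61 ± 0.21 (edgeR adjusted p = 0.591).

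**Figure D5:**
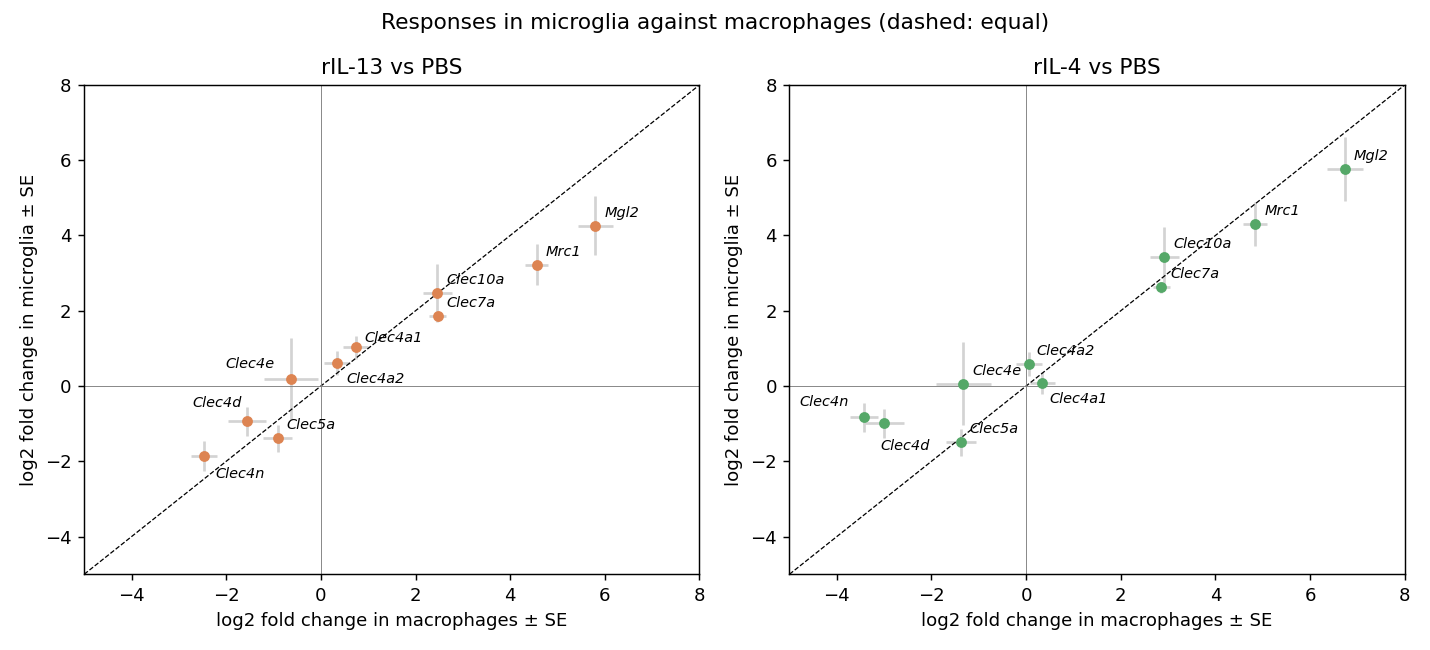
Log2 fold change against PBS in microglia (vertical) and macrophages (horizontal), ± SE, for rIL-13 (left) and rIL-4 (right). On the dashed line the responses would be equal. Clec4n and Clec4d lie above it with rIL-4.

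Across the 4 comparisons with PBS, 6 genes had a positive difference in each (Mrc1, Clec7a, Clec10a, Mgl2, Clec4a1, Clec4a2), 3 had a negative one in each (Clec4n, Clec4d, Clec5a), and Clec4e was mixed. The median log2 difference of the 10 was 0.20 with rIL-4 and 0.54 with rIL-13 in macrophages, beside 0.02 and 0.01 for all genes tested. In microglia it was 0.33 with rIL-4 and 0.82 with rIL-13, beside -0.06 and -0.0008. Over the 18 libraries, after the mean of each cell type was subtracted, log2 CPM of Clec7a and Mgl2 had a Pearson r of 0.97 and that of Clec4n and Clec4d 0.90, while Clec7a and Clec4n had -0.84. These values describe libraries that share treatments, and carry no test. By the same measure, Retnla was the gene most like Clec7a (r = 0.99), Matk most like Mgl2 (0.98), Eef2kmt most like Clec10a (0.95), Id2 most like Clec4n (0.95), F13a1 most like Clec4d (0.93) and Tpd52 most like Clec5a (0.92).

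Of 33 other C-type lectin genes, 18 were tested in microglia and 19 in macrophages. Clec4a3, another member of the Clec4a family, rose in all 4 comparisons, by 5.16-fold in microglia and 3.41-fold in macrophages with rIL-4. Olr1, the receptor for oxidised low-density lipoprotein, rose 5.12-fold in microglia and 3.64-fold in macrophages with rIL-4. In macrophages 3 rose and 5 fell with rIL-4, against 6.77% and 7.20% of all genes. With rIL-13, 2 rose and 2 fell there, against 2.53% and 1.66%. Clec12a, an inhibitory receptor, fell 2.26-fold with rIL-4 and 2.11-fold with rIL-13 in macrophages, and Colec12, a scavenger receptor, fell 10.3-fold with rIL-4. In microglia 2 rose and none fell with rIL-4, against 1.33% and 0.887% of all genes. Only Clec4a3 rose there with rIL-13, against 0.283%.

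Of 23 genes that carry the signal of these receptors, none passed with edgeR in microglia with either cytokine. Of all genes, 2.22% passed there with rIL-4 and 0.366% with rIL-13. In macrophages, 2 rose and 6 fell with rIL-4, where 14.0% of all genes passed. Prkcd, the kinase that acts on Card9, rose 2.29-fold (log2 1.19 ± 0.14, edgeR adjusted p = 0.000614), and Vav1, Plcg2 and Lyn fell 1.77-fold, 1.67-fold and 1.70-fold. The adaptor Tyrobp, which is DAP12, fell by 0.65 ± 0.16 on the log2 scale (edgeR adjusted p = 0.0201), and was picked for its role with Clec5a after its value was seen. With rIL-13, Prkcd rose 1.83-fold and Vav1 fell 1.47-fold. Syk and Fcer1g were lower in PBS microglia than in PBS macrophages, by 2.23-fold and 1.93-fold. Of the 23, 11 were lower there and 1 higher, against 16.3% and 24.5% of all genes.

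Genes known for alternative activation rose in the same libraries. With rIL-4, 7 of 11 tested rose in microglia and 10 of 12 in macrophages, and with rIL-13 6 of 11 and 8 of 12 did, with none lower. Of all genes, 1.33% and 6.77% rose with rIL-4, and 0.283% and 2.53% with rIL-13. Chil3, a chitinase-like protein, rose 138.8-fold in microglia and 35.3-fold in macrophages with rIL-4. Of 15 inflammatory genes, 5 fell in macrophages with rIL-4 and 3 with rIL-13, against 7.20% and 1.66% of all genes, and none rose. Tnf fell 4.60-fold and 4.20-fold. In microglia 2 fell and 1 rose with rIL-4, against 0.887% and 1.33% of all genes, and 3 fell with rIL-13, against 0.0835%.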

How the data were processed

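RNA of sorted microglia and macrophages was sequenced by SMART-seq2 (paired reads, no strand information, no molecular identifiers). Per the study's methods, the authors mapped reads to GRCm38 with STAR 2.5.3a and deposited expected counts of RSEM 1.3.0 per gene, as whole numbers and not normalized; a read matching more than 1 gene is shared out by RSEM. From these, edgeR 4.0.16 (filterByExpr, TMM, quasi-likelihood, two-sided, Benjamini-Hochberg over all genes kept, threshold 0.05) was fitted to the 9 libraries of a cell type, the 6 PBS libraries (cell type) or all 18 (interaction). SE is the log2 fold change divided by the root of F. CPM used TMM factors over 18 libraries; length was the union of exons in GENCODE M21, which matched 99.64% of gene IDs. DESeq2 1.42.0, other filters, the mouse as a block and leaving out each library were alternatives. The labels give both cell types of a mouse the same number, and their deviations correlated at 0.0177 to 0.0935. The scripts were tested on simulated data. Every member was kept by the filter in each fit. Named genes were the 10 members, up to 4 genes of each list with the lowest adjusted p, and the gene most like a member by Pearson r. Cell type markers given by name were picked outside this rule, and other exceptions are said where they occur. Members and lists were chosen with earlier results of these data known. Separate mice are replicates. The lowest count of a member in a library was 13, and counting error, which PCR without molecular identifiers adds to, was not measured. Promoter motifs were chosen after the expression values had been seen.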

Additional observations from a re-analysis of the deposited data

Results flagged for a closer look

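The response of Clec4n to rIL-4 differed between the cell types in a direct test. The log2 fold change in microglia minus that in macrophages was 2.57 ± 0.42 (SE, edgeR adjusted p = 0.00883, 3 mice per group), and Clec4n was lower than PBS in 3 of 3 rIL-4 libraries of each cell type. Clec4n was at 197 CPM or more in PBS macrophages and at most 19.8 CPM in PBS microglia. The sum of the neutrophil markers was between 168 and 244.2 CPM in PBS microglia and between 1024 and 1665 CPM in PBS macrophages, and its part in the difference was not tested.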

How the results depend on the processing

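Of 520 member values under another setting, 481 kept their direction and side of the threshold, 33 newly passed, 6 changed sign and none lost its call; without 1 library or mouse, 466 of 510 kept both, 8 lost a call, 3 gained one and 33 changed sign. In the following, the share of all genes called in the same fit is in parentheses. With rIL-4 in microglia the 3 genes called (2.22%) became 5 with DESeq2 (8.09%), with at least 10 counts in every library (3.48%), with only the 6 libraries compared (2.85%) and with all 18 libraries in 1 model (5.74%), 4 with any count (1.40%), and 2 to 3 without 1 library, with 2 when PBS mouse 1 (0.494%) or mouse 2 (0.783%) was left out. With rIL-13 in microglia 1 (0.366%) became 6 with DESeq2 (2.19%), 3 with any count (0.308%) or at least 10 counts (0.721%), 4 with 18 libraries (1.04%), and 1 to 2 without 1 library, with 2 when mouse 6 of rIL-13 was left out (0.308%). With rIL-4 in macrophages 7 (14.0%) became 8 with any count (8.72%) or only the 6 libraries compared (14.6%), and 6 to 7 without 1 library. With rIL-13 in macrophages 5 (4.19%) became 6 with DESeq2 (8.56%), 7 with any count (3.26%), and 5 to 7 without 1 library. Between the cytokines 0 became 1 in microglia with DESeq2 (3.78%) and 18 libraries (0.835%), and 2 in macrophages with DESeq2 (3.09%) and any count (0.896%). For the rIL-4 interaction 1 (0.992%) became 2 with DESeq2 (4.28%) and 0 to 1 without 1 mouse (0.105% to 0.629%). The cause was not tested.

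The log2 values that changed sign belonged to genes not called. With Clec10a and Mgl2 summed, and 6 Clec4a and Clec4b genes summed, the values are those of a sum and not of a member. For the 6 genes rIL-4 minus rIL-13 was 0.0355 in microglia and 0.0643 in macrophages, opposite in sign to Clec4a1 and Clec4a2 alone, and the interaction of rIL-4 was 0.5551, opposite to Clec4a1 alone. For Clec10a and Mgl2 the interaction of rIL-4 was 0.1188, opposite to Mgl2 alone, and that of rIL-13 was -0.4280, opposite to Clec10a alone. Clec7a in microglia minus macrophages with PBS was 0.0011 with DESeq2 and its size factors, 0.0641 with at least 10 counts, 0.0304 with 18 libraries and 0.0093 with the mouse as a block. The paired fit with the mouse as a block also gave -0.2547 for Clec10a in the rIL-13 interaction, and it changed no call. Without 1 library or mouse, log2 ranges that crossed 0 were as follows. For rIL-13 response, microglia minus macrophages, they were Clec10a -0.4134 to 0.5782, Clec4a2 -0.2010 to 0.8648 and Clec5a -0.8909 to 0.3008. For rIL-4 against PBS, microglia, they were Clec4a1 -0.0952 to 0.3052 and Clec4e -1.5657 to 1.1758. For rIL-4 against PBS, macrophages, they were Clec4a2 -0.1318 to 0.2130. For rIL-4 against rIL-13, macrophages, they were Clec4a2 -0.4869 to 0.0486 and Clec4e -1.2921 to 0.1699. For rIL-4 against rIL-13, microglia, they were Clec4a2 -0.2804 to 0.2507, Clec4d -0.2345 to 0.1238, Clec4e -1.7479 to 0.4418 and Clec5a -0.4291 to 0.1633. For rIL-13 against PBS, microglia, they were Clec4e -0.2843 to 1.2986. For rIL-4 response, microglia minus macrophages, they were Clec5a -0.2983 to 0.0909. For microglia against macrophages, PBS, they were Clec7a -0.1083 to 0.0695 and Mgl2 -0.9774 to 0.2171. With 3 mice a group, a difference needs to be several times its SE to pass.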
